A study of Mus musculus with 4 samples.

Results

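A set of 10 genes from the pathway through which leukaemia inhibitory factor (LIF) acts on embryonic stem cells were followed after depletion of Hnrnpk. They were listed by name as members of the pathway, with earlier results of these data known: Lif, Lifr, Il6st, Jak1, Jak2, Tyk2, Stat3, Socs2, Socs3 and Bcl3. All 10 were found among the 22138 genes of the table, and all 10 passed the filter on low values. The cells were TT2, a line of female mouse embryonic stem cells (C57BL/6xCBA), grown without feeder cells in medium with serum and LIF. They were transfected with control siRNA (n = 2 libraries) or with siRNA against Hnrnpk (n = 2 libraries), at 100 nM and again at 50 nM after 24 hours, and RNA was taken about 72 hours later. LIF in the medium was therefore common to both groups, and no library without it was analysed here.

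LIF is a secreted cytokine that joins the LIF receptor subunit, encoded by Lifr, to the shared signal transducer gp130, encoded by Il6st. Kinases of the Janus family, JAK1, JAK2 and TYK2, are bound to the inner parts of the receptor and phosphorylate it and the transcription factor STAT3, which enters the nucleus and switches on its targets. In mouse embryonic stem cells this signal sustains self-renewal, and it also induces inhibitors of the SOCS family, which bind the receptor or its kinases and dampen the signal.

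The upstream sequences of 3 of the genes are given first because they belong to the receptor subunits and to Socs3, the genes whose levels fell furthest. They are the 250 bases before the start of transcription in RefSeq (build GRCm38.p6), written 5′ to 3′ on the strand of the gene. Capitals mark a match to TTCNNNGAA, the general form of a STAT binding sequence, which reads the same on both strands.
Socs3, chr11:117969367-117969616, minus strand: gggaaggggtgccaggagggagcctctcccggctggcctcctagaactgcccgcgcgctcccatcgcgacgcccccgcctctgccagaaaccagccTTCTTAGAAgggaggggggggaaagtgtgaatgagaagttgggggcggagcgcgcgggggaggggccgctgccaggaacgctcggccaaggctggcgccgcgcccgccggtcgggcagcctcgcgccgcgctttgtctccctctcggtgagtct
Il6st, chr13:112463820-112464069, plus strand: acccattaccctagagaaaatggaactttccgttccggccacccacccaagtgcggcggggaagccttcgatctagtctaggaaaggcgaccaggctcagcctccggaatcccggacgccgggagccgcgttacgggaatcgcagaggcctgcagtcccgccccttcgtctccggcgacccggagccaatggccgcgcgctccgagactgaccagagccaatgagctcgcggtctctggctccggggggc
Lifr, first start, chr15:7129322-7129571, plus strand: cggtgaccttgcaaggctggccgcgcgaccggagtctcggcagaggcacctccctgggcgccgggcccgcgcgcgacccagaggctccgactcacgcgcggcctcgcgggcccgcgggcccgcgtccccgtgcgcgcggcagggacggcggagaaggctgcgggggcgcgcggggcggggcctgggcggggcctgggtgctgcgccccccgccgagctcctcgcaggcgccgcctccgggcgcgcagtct
Lifr, second start, chr15:7140292-7140541, plus strand: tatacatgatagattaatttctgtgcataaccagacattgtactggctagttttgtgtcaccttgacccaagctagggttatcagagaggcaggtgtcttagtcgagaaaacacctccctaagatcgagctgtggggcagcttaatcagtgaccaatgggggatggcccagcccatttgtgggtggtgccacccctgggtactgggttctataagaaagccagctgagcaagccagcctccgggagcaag

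The Socs3 window held the match TTCTTAGAA, which began 154 bases before the RefSeq start. That start lies 180 bases upstream of the first base of the longest coding Socs3 transcript in GENCODE M21, so the stretch closest to the latter is outside the window. The Lifr gene in GENCODE M21 begins at base 7090614, upstream of both Lifr windows printed here. The sequence before that base is therefore not shown. Promoter windows of 300 bases, with 250 before and 50 after the start, were found for 9 of the 10 genes. One of their 10 windows held TTCNNNGAA. Over all 32851 RefSeq windows of that length, 8.30% held it. The 250 bases before the start also differed in composition. Those of the first Lifr start had 82.4% G and C with 43 CpG sites, and those of the second had 50.8% with 3 CpG sites. The 250 bases of Il6st had 26 CpG sites and those of Socs3 26, where the median of the same 250 bases over all windows was 6. A match to letters is a description of the sequence, and binding of STAT3 was not measured here.

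Levels are given as RPKM, a read density per gene length and library size. Comparing different genes within a library depends on the lengths behind the RPKM, which sources used here do not give. For Socs2 in GENCODE M21, all exons together cover 9531 bases and the longest coding transcript 2222. Orders, sums, shares and ratios of genes are therefore those of the RPKM as deposited. Changes are differences of log2(RPKM + 0.5) between Hnrnpk siRNA and control siRNA, which understates the change of low genes. They were tested with limma across the 12486 genes whose mean reached 0.5 RPKM, and a gene was called where the Benjamini-Hochberg adjusted p was under 0.05. Hnrnpk itself stood at 236 and 226 RPKM with control siRNA and 68.0 and 70.5 RPKM after its siRNA. About 50.5% of its longest coding transcript matches other genes at 95% identity or more, so its own level is uncertain. The RPKM of a library summed to between 359659 and 390467. The smallest steps between low values put the depth of the other libraries at 0.884 to 0.985 of that of control replicate 1. The 8 embryonic stem cell markers examined, Pou5f1, Sox2, Nanog, Zfp42, Esrrb, Dppa5a, Tdgf1 and Utf1, were all well above the filter. Of them, 5 were called, 2 higher and 3 lower, where 67.2% of all genes tested were called. Their summed levels were 3788 to 3908 RPKM in control libraries and 4554 to 4880 RPKM after Hnrnpk siRNA. Dppa5a, singled out after its values were seen, carried the higher sum: without it the sums were 2511 to 2588 RPKM in control libraries and 2391 to 2429 RPKM after Hnrnpk siRNA.

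Transcripts of both receptor subunits, Stat3, Tyk2 and the STAT3-induced genes Socs3 and Bcl3 were lower after Hnrnpk siRNA, while those of the ligand, Jak1, Jak2 and Socs2 were higher. All 10 genes were called, 6 lower and 4 higher. Among all genes tested, 67.2% were called, with 35.0% called lower and 32.2% called higher, so a call by itself is common in these libraries. The groups did not overlap for any of the 10 genes, which was also true of 84.7% of all genes tested. The median log2 change of the 10 genes was -0.41, beside -0.015 over all genes tested. With 2 libraries in each group an exact permutation test of 1 gene cannot give a p below 0.333, so the calls depend on pooling the spread over genes in limma. In these bulk samples, fewer cells of a type and less RNA per cell cannot be told apart.

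**Figure D1:**
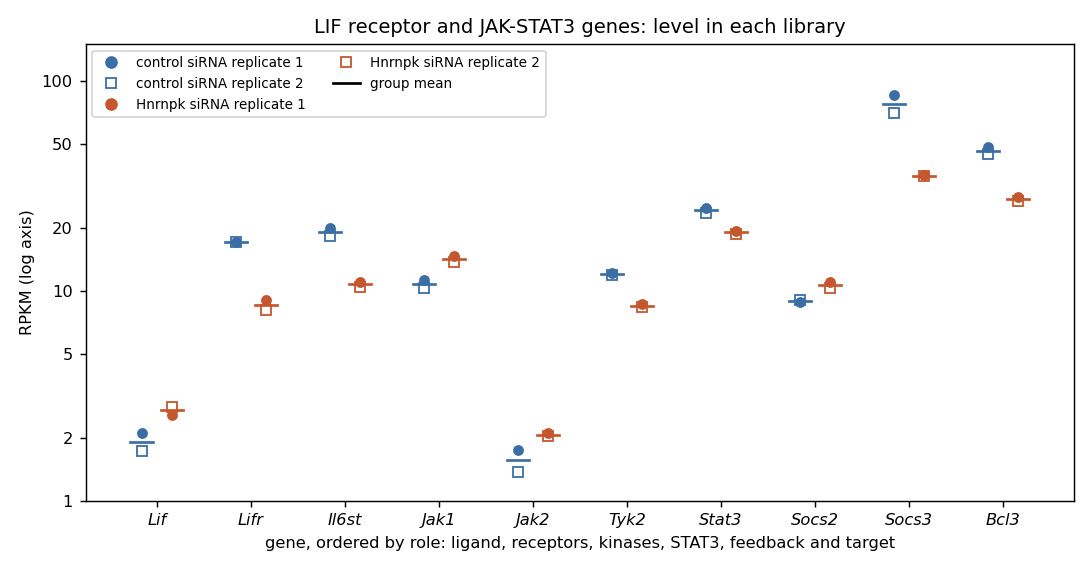
RPKM of each gene on a log axis in the 4 libraries. Circles are replicate 1, open squares replicate 2, blue control siRNA, orange Hnrnpk siRNA, and bars are group means; Lif, Jak1, Jak2 and Socs2 lie higher in both Hnrnpk siRNA libraries and the other 6 genes lie lower.

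The ligand gene was low in both groups. Lif (ENSMUSG00000034394, chromosome 11, 4257557 to 4272514, plus strand) was at 2.10 and 1.73 RPKM with control siRNA and 2.58 and 2.81 RPKM after Hnrnpk siRNA. The groups did not overlap, with means of 1.91 ± 0.266 and 2.69 ± 0.164 RPKM (SD, n = 2 each). The log2 change was 0.41 (limma, SE 0.102, adjusted p = 0.00573). Without Hnrnpk siRNA replicate 2 it was 0.35 and no longer called (limma adjusted p = 0.0684). This transcript is the cells' own Lif, which is separate from the LIF supplied in the medium. All positions here and below are those of GENCODE M21 on GRCm38, matched by gene identifier.

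The receptor subunits fell together. Lifr (ENSMUSG00000054263, chromosome 15, 7090614 to 7197489, plus strand), whose product binds LIF, was at 17.1 and 17.0 RPKM with control siRNA and 9.04 and 8.07 RPKM after Hnrnpk siRNA. The control libraries were nearly equal and both far above the Hnrnpk siRNA libraries. The group means were 17.1 ± 0.0592 and 8.55 ± 0.684 RPKM (SD, n = 2 each), a ratio of 0.501, and the log2 change was -0.96 (limma, SE 0.0758, adjusted p = 4.76e-06). Il6st (ENSMUSG00000021756, chromosome 13, 112464070 to 112510086, plus strand), the subunit shared with the receptors of interleukin 6 and related cytokines, was at 19.9 and 18.3 RPKM with control siRNA and 11.1 and 10.5 RPKM after Hnrnpk siRNA. Its groups were also apart, at 19.1 ± 1.14 and 10.8 ± 0.417 RPKM (SD, n = 2 each). The Il6st log2 change was -0.79 (limma, SE 0.0730, adjusted p = 1.18e-05). Of all genes tested, 9.59% changed by more than Lifr in absolute log2 change and 14.7% by more than Il6st.

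Within a library, the level of Lifr was 0.861 and 0.932 times that of Il6st in the controls and 0.817 and 0.771 times that of Il6st after Hnrnpk siRNA. The ratio was lower in both Hnrnpk siRNA libraries. The exact two-sided permutation p of 0.333 is the smallest this design allows, and it was 0.389 when adjusted over the 7 sums and ratios computed.

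The Janus kinases went in opposite directions. Tyk2 (ENSMUSG00000032175, chromosome 9, 21104068 to 21131243, minus strand) was at 12.2 and 11.9 RPKM with control siRNA and fell to 8.62 and 8.37 RPKM after Hnrnpk siRNA. Replicates differed far less than the groups, and the log2 change was -0.48 (limma, SE 0.0699, adjusted p = 0.000219). With GC trends removed the Tyk2 change was -0.39. Jak1 (ENSMUSG00000028530, chromosome 4, 101152367 to 101265282, minus strand), which is required for signalling by gp130, was at 11.3 and 10.3 RPKM with control siRNA and 14.6 and 13.8 RPKM after Hnrnpk siRNA. Its log2 change was 0.38 (limma, SE 0.0753, adjusted p = 0.00152), with both Hnrnpk siRNA libraries above both controls.

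Jak2 (ENSMUSG00000024789, chromosome 19, 29251828 to 29313080, plus strand) was the lowest of the 10 genes, at 1.74 and 1.38 RPKM with control siRNA and 2.10 and 2.03 RPKM after Hnrnpk siRNA. The control libraries differed from each other by more than the gap between the groups. Its log2 change of 0.32 (limma, SE 0.105, adjusted p = 0.0209) had the highest adjusted p of the 10. It was not called without control siRNA replicate 2 (0.20, limma adjusted p = 0.0656), without Hnrnpk siRNA replicate 1 (0.30, limma adjusted p = 0.124), without Hnrnpk siRNA replicate 2 (0.34, limma adjusted p = 0.0858) or with GC trends removed (0.24, limma adjusted p = 0.0782).

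While Jak1 rose and Tyk2 fell, the summed level of Jak1, Jak2 and Tyk2 was 25.3 and 23.6 RPKM with control siRNA and 25.3 and 24.2 RPKM after Hnrnpk siRNA, and the groups overlapped (exact permutation p = 0.667). The share of Jak1 was 44.8% and 43.7% with control siRNA and 57.6% and 57.0% after Hnrnpk siRNA. The share of Tyk2 was 48.3% and 50.5% with control siRNA and 34.1% and 34.6% after Hnrnpk siRNA. The ratio of Jak1 to Tyk2 was 0.896 ± 0.0428 and 1.67 ± 0.0305 (SD, n = 2 each; exact permutation p = 0.333, the smallest possible). In RPKM, Tyk2 was therefore above Jak1 in both control libraries and below it in both Hnrnpk siRNA libraries. That order, like the sum and the shares, depends on the gene lengths behind the RPKM. A fixed length per gene cancels where the ratio of Jak1 to Tyk2 is compared between groups. The ratio of Jak1 to Tyk2 was added to the planned sums and ratios after the values had been seen.

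**Figure D2:**
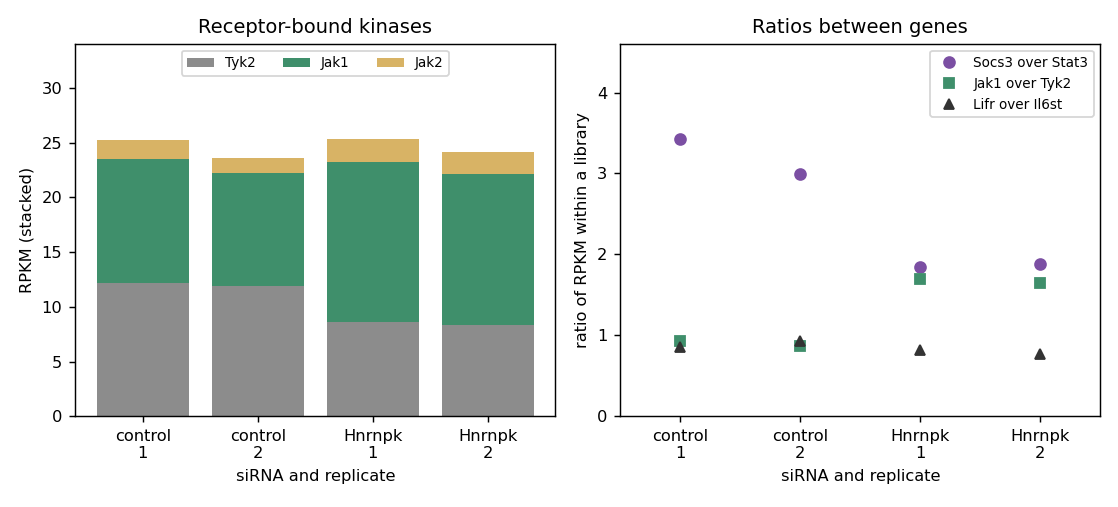
Left, stacked RPKM of Tyk2, Jak1 and Jak2 in each library; right, ratios of RPKM between genes within each library. The stacks have similar heights of 23.6 to 25.3 RPKM, while Jak1 over Tyk2 is below 1 in both control libraries and above 1 in both Hnrnpk siRNA libraries.

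Stat3 (ENSMUSG00000004040, chromosome 11, 100885098 to 100939540, minus strand), the transcription factor of the pathway, was at 24.9 and 23.5 RPKM with control siRNA and 19.3 and 18.7 RPKM after Hnrnpk siRNA. The groups were apart but close, at 24.2 ± 1.01 and 19.0 ± 0.452 RPKM (SD, n = 2 each). The log2 change of -0.34 (limma, SE 0.0661, adjusted p = 0.00133) was the smallest fall among the 6 genes called lower. Changes of larger absolute size were found in 47.8% of all genes tested.

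Socs3 (ENSMUSG00000053113, chromosome 11, 117966079 to 117970047, minus strand), whose product binds gp130 and inhibits the attached kinases, had the highest level of the 10 genes and the largest change. It was at 85.3 and 70.3 RPKM with control siRNA and 35.6 and 35.1 RPKM after Hnrnpk siRNA. The control libraries differed from each other by more than the Hnrnpk siRNA libraries did, and both were far above them. The group means of 77.8 ± 10.6 and 35.3 ± 0.335 RPKM (SD, n = 2 each) gave a log2 change of -1.12 (limma, SE 0.0869, adjusted p = 4.23e-06). It lay between -1.26 and -0.98 when 1 library at a time was left out. Of all genes tested, 6.03% changed by more. Within a library Socs3 was 3.42 and 2.996 times the level of Stat3 in the controls and 1.84 and 1.88 times after Hnrnpk siRNA (exact permutation p = 0.333, the smallest possible).

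Bcl3 (ENSMUSG00000053175, chromosome 7, 19808462 to 19822770, minus strand), which encodes a nuclear member of the I-kappa-B family and is induced by LIF in embryonic stem cells, was the next in level. It was at 48.5 and 44.7 RPKM with control siRNA and 28.0 and 26.7 RPKM after Hnrnpk siRNA. Both Hnrnpk siRNA libraries were well below both controls, with a log2 change of -0.76 (limma, SE 0.0675, adjusted p = 9.63e-06). With GC trends removed the Bcl3 change was -0.54. With an antisense gene, Gm16175, 6.51% of the exonic bases of Bcl3 are shared, and for Tyk2 the antisense gene 1700084C06Rik shares 8.07%. Sources used here do not say whether reads were counted by strand.

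Socs2 (ENSMUSG00000020027, chromosome 10, 95385362 to 95417180, minus strand), a SOCS family member best known as a brake on growth hormone signalling, moved the other way from Socs3. It was at 8.82 and 9.07 RPKM with control siRNA and 11.0 and 10.4 RPKM after Hnrnpk siRNA. The log2 change of 0.24 (limma, SE 0.0723, adjusted p = 0.0140) was the smallest of the 10 in absolute size, and 61.1% of all genes tested changed by more. Without Hnrnpk siRNA replicate 1 it was 0.20 and not called (limma adjusted p = 0.138). The pseudogene Gm9847 matches 27.0% of the longest coding Socs2 transcript, but it was listed at only 0.0135 to 0.0701 RPKM.

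**Figure D3:**
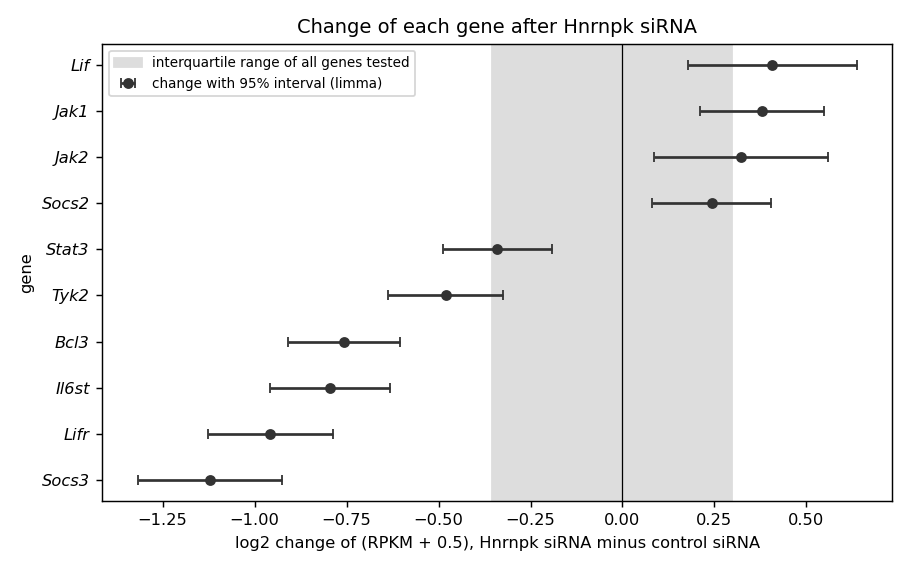
Log2 change of (RPKM + 0.5), Hnrnpk siRNA minus control siRNA, for each gene with its 95% interval from limma; the grey band is the interquartile range over all genes tested. Socs3, Lifr, Il6st and Bcl3 lie wholly below the band, while the intervals of the other 6 genes overlap it.

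The order of levels in RPKM changed between the groups. Within a group this order depends on the gene lengths behind the RPKM, which are not known here. In the control libraries it was Socs3, Bcl3, Stat3, Il6st, Lifr, Tyk2, Jak1, Socs2, Lif and Jak2, and of these neighbours only the ranges of Lif and Jak2 overlapped. After Hnrnpk siRNA it was Socs3, Bcl3, Stat3, Jak1, Il6st, Socs2, Lifr, Tyk2, Lif and Jak2. Here the ranges of Il6st and Socs2 overlapped, as did those of Lifr and Tyk2. Jak1 moved from the rank of 7 to that of 4, and Lifr from 5 to 7.

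The other STAT genes and Jak3 were also mostly lower. Of these 7 genes, 5 were called lower and 2 higher, beside 67.2% called over all genes tested. The median log2 change was -0.34. Stat5b, which like Stat5a acts downstream of growth hormone and prolactin receptors, fell from 4.94 ± 0.661 RPKM with control siRNA to 2.26 ± 0.107 RPKM (each SD, n = 2; log2 change -0.97, limma adjusted p = 2.40e-05). Stat4, known from interleukin 12 signalling in lymphocytes, fell from 9.69 ± 0.596 RPKM with control siRNA to 5.11 ± 0.0879 RPKM (each SD, n = 2; log2 change -0.86, limma adjusted p = 1.08e-05). Jak3, best known from lymphocytes, was higher than Jak1 in all 4 libraries, at 20.2 and 20.8 RPKM with control siRNA and 15.3 and 14.7 RPKM after Hnrnpk siRNA. Its log2 change was -0.44 (limma adjusted p = 0.000257), and -0.26 with GC trends removed. Stat2 and Stat6 had log2 changes of -0.34 and -0.20, and that of Stat2 was -0.19 without control siRNA replicate 1 and -0.48 without control siRNA replicate 2. Stat5a rose by 0.45 on the log2 scale from a level of only 0.989 ± 0.254 RPKM (SD, n = 2), and the change of 0.39 without Hnrnpk siRNA replicate 2 was not called. The Stat5a change was 0.27 without control siRNA replicate 2 and 0.62 without control siRNA replicate 1. Stat6 was not called with GC trends removed or without control siRNA replicate 1 or either Hnrnpk siRNA library. Some of these transcripts share bases with other genes, so their values are uncertain. The share was 26.7% of the longest coding Stat4 transcript and 10.1% of that of Jak3, the latter with Insl3. Stat5a and Stat5b share bases with each other, at 11.3% of the longest coding Stat5a transcript and 9.44% of that of Stat5b.

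Ligands and receptors of the same cytokine family were mostly at low levels. Of 16 genes, 9 had a mean below 0.5 RPKM and were not tested, among them Il6, Il11, Osm and Osmr. Of the 7 tested, 2 were called higher and 1 lower, beside 67.2% called over all genes tested. The median log2 change was -0.0095. Il6ra, the ligand-binding receptor of interleukin 6, which signals through gp130, was at 0.480 and 0.461 RPKM with control siRNA and 1.17 and 1.10 RPKM after Hnrnpk siRNA (log2 change 0.75, limma adjusted p = 8.17e-05). Its control mean of 0.471 RPKM was below the filter of 0.5 RPKM, so Il6ra was tested only through its level after Hnrnpk siRNA. Its rise beside the fall of Il6st is therefore description only. Cntf and Ebi3 had log2 changes of 0.26 and -0.24, at limma adjusted p of 0.0442 and 0.0455, and neither was called without Hnrnpk siRNA replicate 1 or without Hnrnpk siRNA replicate 2. They were also not called without control siRNA replicate 1 or with GC trends removed, where Ebi3 was at -0.15. The change of Cntf was 0.17 both without Hnrnpk siRNA replicate 1 and with length trends removed, and that of Ebi3 was -0.40 with 0.1 RPKM added in place of 0.5. Cntf shares 79.3% of its longest coding transcript with Zfp91 and Ebi3 shares 23.7% with an antisense gene, so the level of either is uncertain. Ebi3 passed the filter only through its control level, since its mean after Hnrnpk siRNA was 0.455 RPKM.

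Negative regulators of the pathway went both ways. Of 15 tested, 9 were called, 4 of them higher and 5 lower, beside 67.2% called over all genes tested. The median log2 change was -0.022. Socs7 fell from 8.73 ± 0.544 to 5.40 ± 0.0605 RPKM and Socs1 from 5.53 ± 0.181 to 4.16 ± 0.146 RPKM (each SD, n = 2), with log2 changes of -0.64 and -0.37, the latter -0.25 with GC trends removed. Socs4 rose from 3.18 ± 0.162 RPKM with control siRNA to 4.15 ± 0.107 RPKM (each SD, n = 2; log2 change 0.34), but not by the test with GC trends removed (0.15) or without Hnrnpk siRNA replicate 1. Cish, a SOCS family gene induced by STAT5, had a log2 change of 0.022 and was not called (20.7% of its longest coding transcript is shared with other genes; limma adjusted p = 0.835; 95% interval -0.17 to 0.22). Ptpn11, whose phosphatase product binds gp130 at the site that SOCS3 uses, fell from 15.9 ± 0.359 to 12.1 ± 0.313 RPKM, and Pias4 rose from 21.3 ± 1.65 to 28.2 ± 0.0753 RPKM (SD, n = 2 each).

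Reported STAT3 targets did not move in 1 direction. The list holds 15 rows of the table for 14 symbols, since Jmjd1c is listed under 2 identifiers. Of these rows, 11 were called, 5 of them higher and 6 lower, beside 67.2% called over all genes tested. The median log2 change was -0.16. Tcfcp2l1, now called Tfcp2l1, a transcription factor of the naive state, was at 40.9 and 32.9 RPKM with control siRNA and 106 and 94.2 RPKM after Hnrnpk siRNA. It rose by 1.44 on the log2 scale (SE 0.101, limma adjusted p = 2.35e-06), while Socs3 and Bcl3 fell. Gbx2, another self-renewal factor induced by LIF, was at 9.62 and 13.3 RPKM with control siRNA and 5.54 and 5.02 RPKM after Hnrnpk siRNA (log2 change -1.03, SE 0.129, limma adjusted p = 8.11e-05). An antisense gene overlaps 44.3% of the longest coding Gbx2 transcript and another overlaps 20.2% of that of Icam1. Ier3 and Ifitm3 also fell, with log2 changes of -0.97 and -0.74, and Icam1 rose by 0.74. Klf4, a transcription factor of self-renewal known as a STAT3 target, was at 127 and 94.2 RPKM with control siRNA and 99.5 and 96.2 RPKM after Hnrnpk siRNA. The control libraries spanned the other group, and its log2 change of -0.16 was not called (limma adjusted p = 0.246; 95% interval -0.42 to 0.10). Without control siRNA replicate 1 the Klf4 value was 0.055, and without control siRNA replicate 2 it was -0.37 and called. TTCNNNGAA was found in 4 of 16 promoter windows for 12 of these genes, where 8.30% of all windows held it. More than 1 of these matches lay at alternative starts of a single gene that was not called. The windows of Icam1, which rose, and Ifitm3, which fell, also held it. The Ifitm3 match began 13 bases after the start.

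Adaptors and kinases that link the receptor to other routes were called in 6 of 12 cases, 3 higher and 3 lower. Over all genes tested 67.2% were called. The median log2 change of the list was -0.0047. Mapk3, which encodes ERK1, fell from 71.6 ± 2.99 to 44.1 ± 0.344 RPKM and Akt1 from 22.5 ± 1.41 to 16.1 ± 0.987 RPKM (each SD, n = 2), with log2 changes of -0.69 and -0.47. Shc1, an adaptor for RAS activation, rose from 22.4 ± 0.427 to 36.1 ± 0.615 RPKM (each SD, n = 2), with a log2 change of 0.68. Of the longest coding Shc1 transcript, 28.3% matches another gene. Gab2 rose by 0.49 on the log2 scale from a low level of 0.406 ± 0.0683 RPKM (SD, n = 2), and by 0.79 with 0.1 RPKM added in place of 0.5. That control level was below the filter, so Gab2 was tested only through its level after Hnrnpk siRNA (mean 0.773 RPKM).

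**Figure D4:**
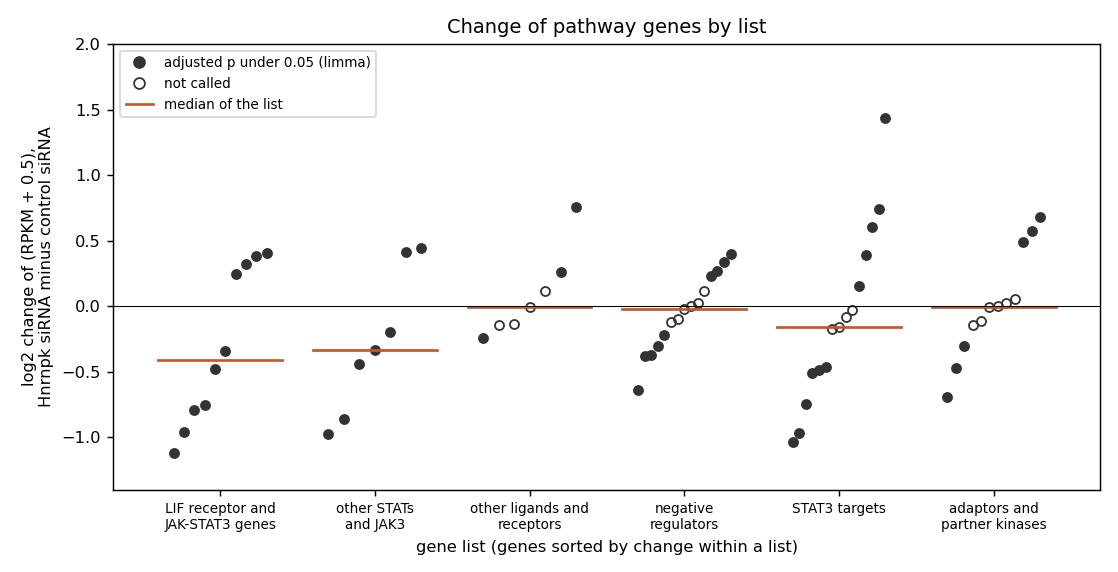
Log2 change of each tested gene by list, sorted within a list; filled points were called by limma, open points were not, and orange lines are list medians. Medians lie at -0.41 for the LIF receptor and JAK-STAT3 genes and at -0.34 for the other STATs with Jak3, and between -0.16 and -0.0047 for the rest.

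Markers of other cell types moved with the siRNA. Of 7 tested primitive endoderm marker rows, 6 were called higher and 1, Lamb1, lower, where 67.2% of all genes tested were called. Pdgfra, 1 of the 6, passed the filter only through its level after Hnrnpk siRNA. Its mean was 0.170 RPKM with control siRNA and 0.898 RPKM after Hnrnpk siRNA. The summed level of the primitive endoderm list was 24.2 to 24.5 RPKM in control libraries and 61.8 to 63.7 RPKM after Hnrnpk siRNA. Of 8 trophectoderm markers, 5 were tested and all 5 were called higher, where 32.2% of all genes tested were. Tfap2c was not matched, and Cdx2 and Elf5 did not pass the filter. From control to Hnrnpk siRNA, mean Cdx2 went from 0.234 to 0.740 RPKM and mean Elf5 fell from 0.107 to 0.0656 RPKM. The trophectoderm sums were 30.5 to 36.0 RPKM in control libraries and 68.5 to 73.1 RPKM after Hnrnpk siRNA. Without Krt18, singled out after its values were seen, they were 14.6 to 17.1 and 37.5 to 39.9 RPKM. The fibroblast list, which would mark feeder cells, had sums of 8.79 to 10.4 RPKM in control libraries and 5.05 to 5.31 RPKM after Hnrnpk siRNA, and 5 of its 8 genes were below the filter. Most of that difference was Thy1, also singled out after its values were seen, and without it the sums were 3.48 to 3.60 RPKM in control libraries and 2.83 to 3.03 RPKM after Hnrnpk siRNA. Pdgfrb of that list was not called (log2 change 0.14). One row of these lists was at 0 in all libraries, a further entry for Dab2. The part of these marker levels in the values of the LIF pathway genes was not tested.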

How the data were processed

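The authors deposited 1 table of RPKM values per gene with a column for each of the 4 libraries, so replicates were not pooled. The labels describe the RNA both as rRNA-depleted and as poly(A)-selected. Per the submitters' processing notes, BWA, SAMtools and the build mm9 were used; sources used here do not name the counting tool or annotation release. The series' design text calls the replicates biological but does not say whether they were separate cultures, so p-values measure only the spread between these libraries, which may be technical. RPKM are not counts: among low values of single-exon genes, 28.9% to 30.5% fell within 0.02 of a whole number of units, so whole reads were not recovered, and the steps were used for relative depth only. The depth behind each value is unknown, so no counting error is given.

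Values were analysed as log2(RPKM + 0.5) for the 12486 genes whose mean reached 0.5 RPKM, with limma 3.58.1 in R 4.3.3 (mean-variance trend, two-sided moderated test, Benjamini-Hochberg over all genes tested). On simulated data for 12486 genes with 200 changed, 98% of changes of 0.5 and 100% of changes of 1 on the log2 scale were called. Of 211 calls, 13 were false. The simulated noise was independent and of the form limma assumes, and far fewer genes changed than were called in these libraries. It therefore checks the method and does not measure how reliable the calls here are. Positions, lengths and GC content came from GENCODE M21 (GRCm38), matched by identifier with no conversion between builds, and near-identical transcripts from BLAST 2.17.0 (95% identity over at least 100 bases). Protein sequences were not used here. The genes, the pathway and marker lists and the alternatives were chosen with earlier results of these data known. Named are the 10 genes, Hnrnpk, up to 5 called genes of lowest p in each pathway list, and list genes set beside a member; touching genes found in the annotation and marker genes are named without being chosen for their values. Some genes that this rule names are not reported here, but they stay in the counts and medians of their lists.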

Additional observations from a re-analysis of the deposited data

How the results depend on the processing

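Lifr, Il6st, Tyk2, Stat3, Socs3 and Bcl3 were called lower under all 10 alternatives with 4 libraries and all 4 that left out a library, and Jak1 was called higher under all of them. The number called higher among the 10 genes went from 4 to 2 with no filter on low values, where Lif (0.41, limma adjusted p = 0.0995) and Jak2 (0.32, limma adjusted p = 0.158) were not called. With GC trends removed, Jak2 (0.24) was not called. Without 1 library at a time, the number called higher lay between 2 and 4, and the log2 change between 0.29 and 0.52 for Lif, 0.20 and 0.45 for Jak2, and 0.20 and 0.28 for Socs2. The calls among the other STATs with Jak3, 7 genes in all, fell from 7 to 4 with no filter, where Stat2, Stat5a and Stat6 were lost, as were Gbx2 and Cntf of other lists. With no filter, those among the stem cell markers fell from 5 to 1, negative regulators from 9 to 6 and STAT3 targets from 11 to 8. With GC trends removed, the calls went from 9 to 7 among negative regulators, from 11 to 10 among STAT3 targets and from 6 to 8 among adaptors and partner kinases. In the list of other ligands and receptors, 3 genes were called, against 5 with no filter, 0 of 4 at a mean of at least 1 RPKM (limma; 1 at an unadjusted p under 0.05), 1 with a replicate block, and 1 to 3 without a library. Klf4 and Cish, neither called with all libraries, reversed when a library was left out: Klf4 ranged from -0.37 to 0.055 and Cish from -0.025 to 0.070, with -0.0031 for Cish without Hnrnpk siRNA replicate 1.

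Whether same-numbered libraries were handled together is not known here. The deviations of the replicates correlated at 0.027 over genes, which cannot settle that. With the replicate block, 8622 genes were called in place of 8396, and all 10 pathway genes were called, 4 higher and 6 lower. The RPKM filter and 2 libraries per group limit what can be said of Lif and Jak2, the lowest of the 10 genes.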
